A study of Arabidopsis thaliana with 12 samples.

Results

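Leaves of 4 genotypes were compared for 4 ferritin genes and 4 genes of vacuolar iron transporters: FER1 (AT5G01600), FER2 (AT3G11050), FER3 (AT3G56090), FER4 (AT2G40300), VIT1 (AT2G01770), VTL1 (AT1G21140), VTL2 (AT1G76800) and VTL5 (AT3G25190). They were chosen by locus code, 8 of the 28775 genes in the deposited table of read counts. The study crossed mutations in TRB4 and TRB5, which encode telomere repeat binding proteins, with a mutation in CLF, a histone methyltransferase of Polycomb repressive complex 2. Polyadenylated RNA of mature leaves was sequenced in 3 libraries of each of 4 groups: WT (the accession Col-0), trb45 (mutated in TRB4 and TRB5), clf29 (mutated in CLF) and trb45 clf29 (mutated in all of them). The trb45 mutations came from the single line trb45-1 in both groups that carry them, and further TRB mutant lines that the study's design names were not analysed here. All plants were untreated, grew on soil under 16 h of light and 8 h of dark at 23 °C, and gave leaves at day 21. The labels do not say whether the libraries of a group came from separate plants, so p-values measure only the spread between these libraries, which may be technical.

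Iron is needed for photosynthesis and respiration, but free iron drives the formation of reactive oxygen species, so plant cells store what they do not use. Ferritins are protein shells that oxidise iron and hold it as a mineral core, in plants mainly in plastids. VIT1 moves iron into the vacuole, best known from the embryo, and the VTL proteins are smaller relatives of VIT1. Ferritin and VTL transcripts are known to be high when iron is plentiful and low when it is scarce, the reverse of the genes for iron uptake. In Arabidopsis the bHLH factors ILR3 and PYE are known to repress ferritin genes under iron shortage, and the E3 ligase BTS is known to mark ILR3 and its relatives for degradation.

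Total counts lay between 45519206 and 54215882 per library. The mutated genes were lower where the labels place the mutations. TRB5 had a mean of 17.2 CPM (counts scaled to a common library total) in WT and 3.17 in trb45, TRB4 had 5.51 and 2.29, and CLF had 11.9 in WT and 0.0761 in clf29. The trb45 clf29 means were 1.33 CPM for TRB5, 1.27 for TRB4 and 0.150 for CLF. Leaf mesophyll markers summed to between 83396 and 105697 CPM in every library, and seed and root markers to at most 1.96 and 1.75 CPM. Anther and pollen markers were raised in clf29, where the sum of the 7 listed ran from 8.29 to 21.9 CPM. It ran from 1.39 to 1.76 in WT and from 1.29 to 1.91 in trb45 clf29. All 6 tested genes were called higher in clf29, beside 18.5% of all genes. CYP703A2 and ACOS5 were at 0 in the other groups, where MS2, A9 and AMS had group means of at most 0.0839 CPM. All of these passed the count filter only through clf29, so this count adds no support. The part of the anther and pollen markers in the clf29 results was not tested. Because leaves hold several cell types, fewer cells of a type and less RNA per cell cannot be told apart in these bulk samples.

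The sequence upstream of FER3 is shown because this was the most abundant ferritin gene in the table and it responded to clf29. FER3 encodes a ferritin of leaf plastids. The 250 bases before its annotated start, chr3:20816036-20816285 (minus strand) in RefSeq TAIR10.1, are given 5′ to 3′ on the gene's own strand. Capitals mark the G-box letters CACGTG, a core bound by many bHLH and bZIP factors.
FER3: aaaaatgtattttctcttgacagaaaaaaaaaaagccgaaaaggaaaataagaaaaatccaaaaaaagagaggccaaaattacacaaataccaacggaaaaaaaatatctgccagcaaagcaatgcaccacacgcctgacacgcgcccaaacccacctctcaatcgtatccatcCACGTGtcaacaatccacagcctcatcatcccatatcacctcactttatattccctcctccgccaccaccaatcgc
The G-box letters began 76 bases before the start. They were in neither strand of the windows of FER1, FER2, VIT1, VTL1, VTL2 and VTL5, and 6.49% of 27443 windows of the same length held them. The telobox AAACCCTA, the motif known to be bound by TRB proteins, was in none of these 7 windows, FER3 included, and in 4.49% of all. The letters GNATATNC, the motif P1BS of the phosphate regulator PHR1, were in none of the 7 and in 5.46% of all. These matches describe letters in a window, searched on both strands, and say nothing of binding.

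FER1, VIT1 and VTL5 gave too few counts for a test. FER1, known as a main leaf ferritin, was listed at 0 counts in all 12 libraries. VIT1 was listed at 0 except for 2 counts in clf29 replicate 2. It shares 34 exon bases with AT2G01760 on the opposite strand, which had 214 to 472 counts per library. VTL5 had 26 counts over all libraries. Its counts were 4, 2 and 4 for WT, 0, 0 and 0 for trb45, 2, 2 and 8 for clf29, and 2, 0 and 2 for trb45 clf29. The 3 trb45 libraries and trb45 clf29 replicate 2 were at 0, but no library exceeded 8 counts, and the floor of 3 counts corresponds to 0.0519 to 0.0655 CPM.

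The 0 of FER1 cannot be read as absence of its transcript. The ubiquitin gene UBQ6, of a family that every cell uses, was also listed at 0 in all libraries, as were 3841 of 26710 protein-coding genes (14.4%). FER1 lies across the antisense noncoding locus AT5G01595, whose span overlaps that of FER1 by 1334 bases. The exons of their longest annotated transcripts share no base. Among the 230 protein-coding genes with a noncoding locus of the table on the opposite strand, 73 (31.7%) were at 0 in all libraries, against 3768 of the other 26480 (14.2%). The antisense locus itself had 9 to 30 counts per library. Its mean was 0.452 CPM for WT, 0.415 for trb45, 0.311 for clf29 and 0.215 for trb45 clf29. It was lower in trb45 clf29 than in WT, by a log2 fold change of −1.06 (edgeR adjusted p = 0.0243). How reads were shared between the strands was not tested.

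Low counts in the table had a further feature that touches VTL5, VTL1 and FER2. Of the 28151 values from 1 to 10, 81.9% were even, whereas 50.4% of the 66023 values above 100 and up to 500 were. All counts of VTL5 were even. The cause was not tested, and the other 5 members were tested with the counts as deposited.

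Per kilobase of transcript, FER3 was the highest and VTL1 the lowest of the tested members in WT. The WT levels in CPM per kb were 31.9 ± 1.79 for FER3, 8.73 ± 0.108 for FER4, 2.27 ± 0.288 for VTL2, 0.222 ± 0.0899 for FER2 and 0.164 ± 0.0882 for VTL1 (means ± SD of 3 libraries). FER2 and VTL1 overlapped in WT, while the other neighbours in this order were apart in every library. The order of FER3, FER4 and VTL2 was the same in all 4 groups. FER2 and VTL1 also overlapped in clf29 and in trb45 clf29, and in trb45 all 3 values of VTL1 lay above those of FER2.

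**Figure D1:**
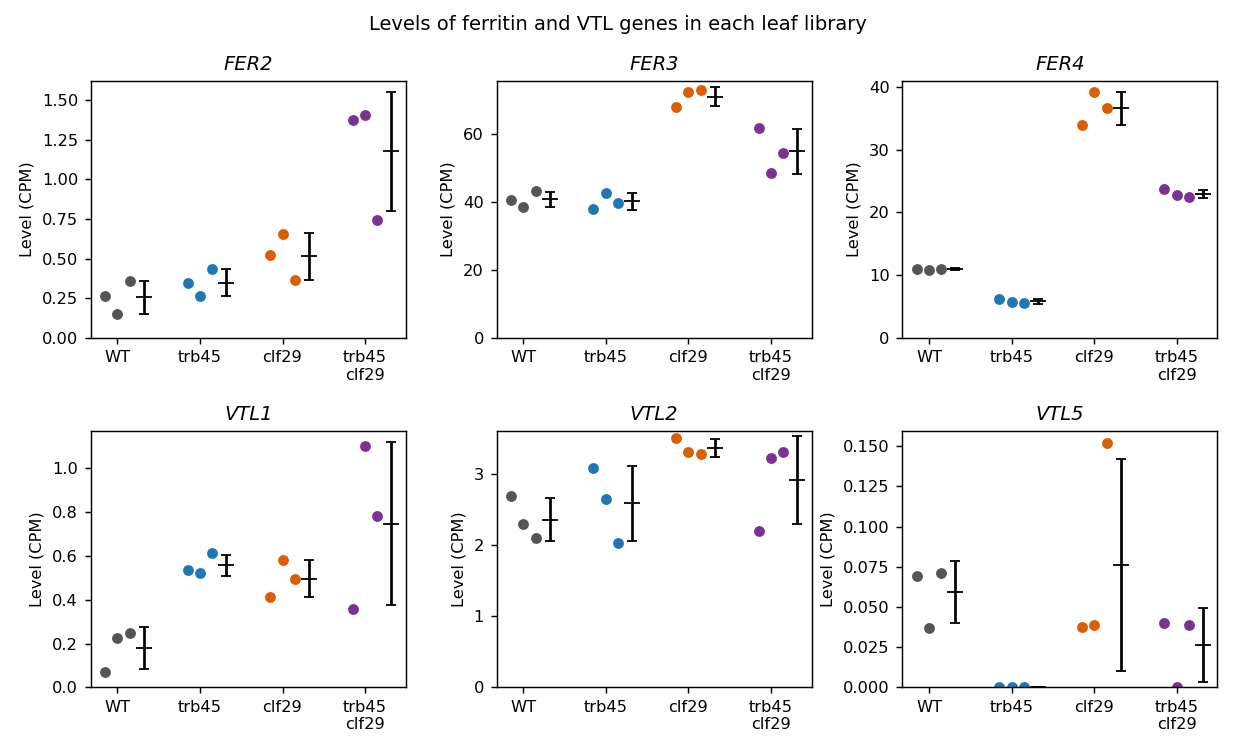
Levels in CPM of the 5 tested members and VTL5, on a linear axis from 0 with its own scale for each gene. Points are the 12 libraries, and the bars beside them give the mean and SD of 3 libraries. The 4 groups of FER4 are apart from one another, with means from 5.83 CPM in trb45 to 36.6 CPM in clf29, and no VTL5 value rests on more than 8 counts.

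FER4, a ferritin of plastids that is also found in mitochondria, separated the genotypes most clearly. It fell in trb45, rose in clf29, and lay between clf29 and WT in the plants that carried all mutations. Its levels were 11.03, 10.78 and 10.97 CPM for WT, 6.25, 5.77 and 5.46 for trb45, 33.9, 39.2 and 36.7 for clf29, and 23.8, 22.7 and 22.5 for trb45 clf29. Every library of a group lay apart from every library of the other groups. FER4 was 1.88-fold lower in trb45 than in WT, or −0.91 on the log2 scale (SE 0.08, edgeR adjusted p = 6.93e-07). It was 3.35-fold higher in clf29 than in WT, at 1.74 on the log2 scale (SE 0.07, edgeR adjusted p = 1.26e-10). The trb45 mutations lowered FER4 in the clf29 background too, 1.59-fold or −0.67 on the log2 scale (SE 0.07, edgeR adjusted p = 3.46e-06). In the trb45 background clf29 raised it 3.94-fold (1.98, SE 0.08, edgeR adjusted p = 1.29e-10). The plants with all mutations remained above WT by 1.07 on the log2 scale (SE 0.07, edgeR adjusted p = 2.58e-08). In these libraries the anther and pollen sum was 1.29 to 1.91 CPM, and its part in the FER4 result was not tested. FER4 shares 118 annotated bases with AT2G40290 on the same strand, and reads there could be counted for either gene. AT2G40290 had means of 59.8 CPM for WT, 58.3 for trb45, 71.2 for clf29 and 60.5 for trb45 clf29, and its clf29 level exceeded that of WT by 0.25 on the log2 scale (edgeR adjusted p = 0.00610).

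FER3, the most abundant of the tested members, responded to clf29 but not detectably to trb45 alone. Its levels were 40.6, 38.6 and 43.2 CPM for WT, 38.0, 42.8 and 39.7 for trb45, 67.8, 72.3 and 73.0 for clf29, and 61.9, 48.4 and 54.3 for trb45 clf29. The WT and trb45 libraries overlapped, the clf29 libraries were the highest, and those of trb45 clf29 lay between. FER3 rose 1.74-fold in clf29 against WT, 0.80 on the log2 scale (SE 0.08, edgeR adjusted p = 2.68e-06). Its change in trb45 against WT was −0.02 with a 95% interval of −0.20 to 0.15 (edgeR adjusted p = 0.878). In the clf29 background, trb45 clf29 was 1.29-fold below clf29 (−0.37, SE 0.08, edgeR adjusted p = 0.00253). It stayed 1.35-fold above WT (0.43, SE 0.08, edgeR adjusted p = 0.000555) and 1.37-fold above trb45 (0.45, SE 0.08, edgeR adjusted p = 0.000976).

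The balance between these ferritins shifted along with their levels. FER4 stood at 27.4% ± 1.31 of FER3 per kb of transcript in WT and at 14.9% ± 1.67 in trb45. The ratio was 52.6% ± 2.41 in clf29 and 43.1% ± 4.44 in trb45 clf29 (means ± SD of 3 libraries). The ranges did not overlap: 25.9 to 28.5% for WT, 13.7 to 16.8% for trb45, 51.0 to 55.4% for clf29 and 39.1 to 47.9% for trb45 clf29. The summed level of FER2, FER3 and FER4 had means of 40.9 CPM per kb for WT, 36.4 for trb45, 85.3 for clf29 and 62.4 for trb45 clf29. FER1, listed at 0, is missing from that sum.

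**Figure D2:**
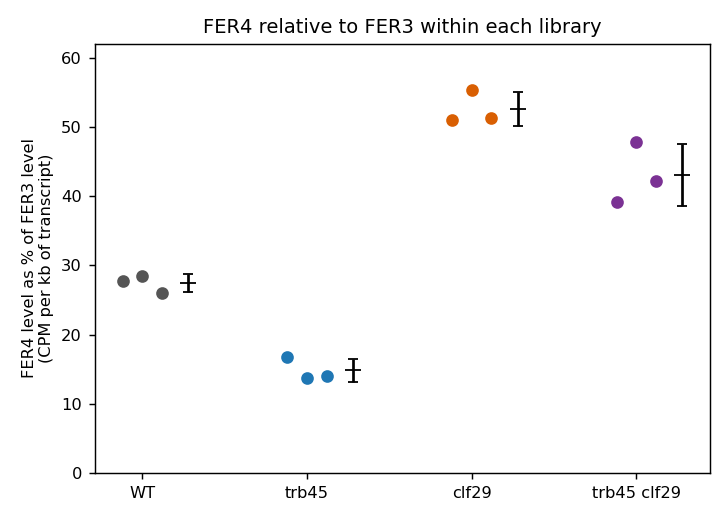
FER4 level as a percentage of the FER3 level within each library, both in CPM per kb of transcript; points are libraries and the bars beside them the mean and SD of 3. The trb45 libraries lie lowest, at 13.7 to 16.8%, and the clf29 libraries highest, at 51.0 to 55.4%.

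FER2, the ferritin best known from seeds, was low in leaves and highest in trb45 clf29. Its levels were 0.261, 0.149 and 0.355 CPM for WT, 0.346, 0.262 and 0.436 for trb45, 0.525, 0.657 and 0.361 for clf29, and 1.38, 1.41 and 0.744 for trb45 clf29. These values rest on 8 to 73 counts per library. All trb45 clf29 libraries lay above all others, clf29 lay just above WT, and trb45 overlapped WT. FER2 shares 8 exon bases with AT3G11040 on the same strand, which had 50 to 113 counts per library. The means of AT3G11040 were 1.43 CPM for WT, 1.81 for trb45, 1.58 for clf29 and 1.32 for trb45 clf29. Its part in the FER2 counts was not tested. FER2 rose 4.56-fold in trb45 clf29 against WT, 2.19 on the log2 scale (SE 0.38, edgeR adjusted p = 0.000224). It also rose against trb45 (1.74, SE 0.36, edgeR adjusted p = 0.00254) and against clf29 (1.19, SE 0.35, edgeR adjusted p = 0.0161). Neither single genotype passed the test against WT, with 0.45 in trb45 (edgeR adjusted p = 0.468) and 1.00 in clf29 (edgeR adjusted p = 0.0633). The difference from clf29 missed the threshold without clf29 replicate 3 (0.99, adjusted p = 0.0782), without trb45 clf29 replicate 1 (1.06, adjusted p = 0.0533) and without trb45 clf29 replicate 2 (1.04, adjusted p = 0.0647). Of 11 seed storage and embryo markers, 9 were at 0 in every group, and the sum of all 11 was 0.284 to 0.354 CPM for WT, 1.53 to 1.96 for trb45, 0.228 to 0.262 for clf29 and 0.509 to 0.917 for trb45 clf29. The sums rested mainly on CRA1, with a mean of 1.66 CPM in trb45, beside 0.0726 CPM for SESA2. The part of these markers in the FER2 result was not tested.

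VTL1, a vacuolar iron transporter known to protect yeast cells that lack their own vacuolar iron importer, was higher than WT in all 3 mutant groups. Its levels were 0.0696, 0.223 and 0.249 CPM for WT, 0.536, 0.524 and 0.611 for trb45, 0.412, 0.580 and 0.494 for clf29, and 0.359, 1.10 and 0.783 for trb45 clf29. All 9 mutant libraries lay above all WT libraries, and the 3 mutant groups overlapped one another, with the widest spread in trb45 clf29. VTL1 rose in trb45 by 1.62 on the log2 scale (SE 0.46, edgeR adjusted p = 0.0167), and clf29 raised it by 1.45 (SE 0.47, edgeR adjusted p = 0.0256). In trb45 clf29 it rose by 2.04 (SE 0.45, edgeR adjusted p = 0.00170). Its differences from trb45 clf29 were not detected, at 0.59 against clf29 (interval −0.26 to 1.45) and 0.42 against trb45 (interval −0.42 to 1.26). The calls in trb45 and clf29, which rest on 4 to 35 counts per library, were lost in some fits without a library, while the direction held in each. Without WT replicate 1, the log2 fold change was 1.21 for trb45 (adjusted p = 0.0788) and 1.05 for clf29 (adjusted p = 0.117). It was 1.53 for trb45 without trb45 replicate 3 (adjusted p = 0.0565), and for clf29 1.32 without clf29 replicate 2 (adjusted p = 0.0796) and 1.45 without clf29 replicate 3 (adjusted p = 0.0593).

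The group means of VTL2 ran from 2.36 CPM in WT to 3.36 CPM in clf29. Its levels were 2.68, 2.29 and 2.095 CPM for WT, 3.08, 2.64 and 2.03 for trb45, 3.50, 3.30 and 3.27 for clf29, and 2.19, 3.22 and 3.31 for trb45 clf29. The clf29 libraries lay above the WT libraries, and the other groups overlapped WT. VTL2 rose in clf29 by 0.51 (SE 0.18, edgeR adjusted p = 0.0418), close to the threshold. The call was lost with library size alone (0.42, edgeR adjusted p = 0.102), and in 5 of the 6 fits that left out a library, all but that without WT replicate 1. In those 5 fits the log2 fold change was 0.42 to 0.53 and the adjusted p 0.0804 to 0.151. In trb45 it had 0.13 (edgeR adjusted p = 0.657), while trb45 clf29 gave 0.30 against WT (edgeR adjusted p = 0.189).

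Set against all genes, the members' calls were as follows. In trb45 against WT, 1 of 5 tested members rose and 1 fell, where 25.7% of all 19138 tested genes passed the test, 14.5% as higher and 11.2% as lower. In clf29 against WT 4 rose and none fell, where 34.7% of all genes were called, 18.5% as higher and 16.2% as lower. In trb45 clf29 against WT 4 rose and none fell, where 48.5% were called, 25.9% as higher and 22.6% as lower. The comparison of trb45 clf29 with clf29 gave 1 rise and 2 falls, where 31.4% were called, 17.2% as higher and 14.2% as lower. The comparison of trb45 clf29 with trb45 gave 3 rises and no fall, where 30.5% were called, 15.8% as higher and 14.7% as lower. The 5 had passed a filter on low counts, so these counts describe them and not all 8. Comparisons with WT share the WT libraries, and those between mutants share theirs.

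The groups of 2 members did not overlap in trb45 against WT, which held for 37.7% of all tested genes in either direction. In clf29 against WT this held for all 5 tested members and 50.8% of all genes, and in trb45 clf29 against WT for 4 and 57.0%. Against clf29, trb45 clf29 did not overlap for 3 members and 47.6% of all genes, and against trb45 for 3 and 39.3%. Against WT the median log2 fold change of the 5 was 0.13 for trb45, 1.00 for clf29 and 1.07 for trb45 clf29, and the corresponding medians of all genes lay at 0.01, 0.0039 and 0.02. It was −0.21 in trb45 clf29 against clf29 and 0.45 in trb45 clf29 against trb45, against all-gene medians of 0.02 and 0.

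No tested member passed the test for a trb45 effect that differs between the CLF backgrounds, where 7.47% of all genes did, 4.16% as higher and 3.31% as lower. The interaction contrast, the trb45 effect in clf29 minus that in WT, gave 0 calls of 5 with edgeR and 0 with DESeq2, and 2 members had an unadjusted p under 0.05. These were FER3, at −0.35 with a 95% interval of −0.60 to −0.10 (edgeR adjusted p = 0.0817), and FER4, at 0.23 with an interval of 0.01 to 0.46 (edgeR adjusted p = 0.208). The FER3 interaction passed with library size alone (−0.39, edgeR adjusted p = 0.0415) and without trb45 clf29 replicate 1 (−0.45, edgeR adjusted p = 0.0121). FER2, VTL1 and VTL2 had 0.74, −1.03 and −0.34 (edgeR adjusted p = 0.490, 0.366 and 0.512).

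**Figure D3:**
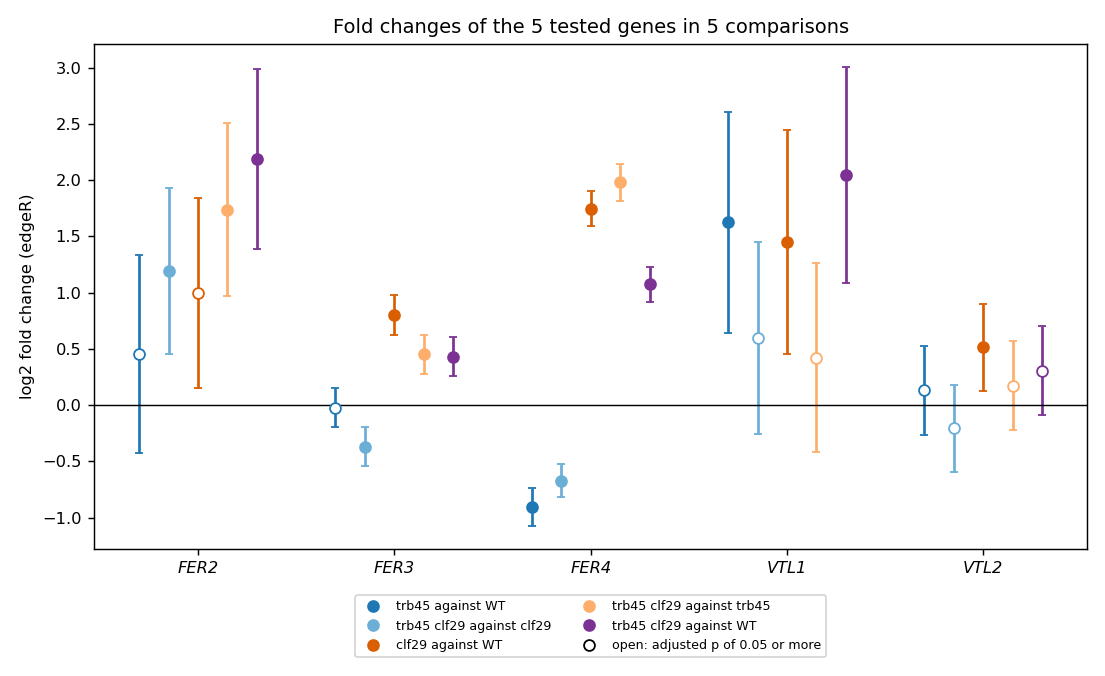
Log2 fold changes of the tested members in each comparison of the 4 groups, with 95% intervals; filled points passed the edgeR test at an adjusted p of 0.05. FER4 ranges from −0.91 in trb45 against WT to 1.98 in trb45 clf29 against trb45.

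Most genes that respond to iron shortage moved in the opposite direction to FER4 in both single genotypes and between clf29 and trb45 clf29. All 11 listed genes of the iron deficiency response were tested. In trb45 against WT 11 rose, beside 14.5% of all genes called higher, and the list's median log2 fold change was 1.33. The comparison of clf29 with WT had 10 that fell and none that rose, with a median of −1.78. Of all genes 16.2% were called lower there and 18.5% higher. In trb45 clf29 against clf29 11 rose, beside 17.2% of all genes called higher, with a median of 2.13. The bHLH factor bHLH39 had means of 11.1 CPM for WT, 36.9 for trb45, 0.159 for clf29 and 4.80 for trb45 clf29. For ORG1, a protein kinase gene, the means were 134 for WT, 229 for trb45, 26.6 for clf29 and 75.6 for trb45 clf29. FER4 had the reverse order in both single genotypes. The other members did so only in part. FER3, VTL1 and VTL2 rose in clf29 against WT, where the list fell. In trb45 against WT, where the list rose, VTL1 rose too (1.62), and FER2, FER3 and VTL2 were not called. In trb45 clf29 against clf29 FER3 fell (−0.37), FER2 rose with the list (1.19), and VTL1 and VTL2 were not called. Between trb45 clf29 and WT the list's directions were less uniform, with 3 genes higher and 6 lower, beside 25.9% and 22.6% of all genes.

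Of 13 tested regulators of ferritin and VTL genes, 5 rose and none fell in trb45 against WT, where 14.5% of all genes were called higher and 11.2% lower. In clf29 against WT 3 rose and 8 fell, beside 18.5% and 16.2% of all genes, and in trb45 clf29 against WT 4 rose and 4 fell, beside 25.9% and 22.6%. In trb45 clf29 against clf29 6 rose and none fell, beside 17.2% and 14.2%. No test compared the list with other genes. BTS had 117 ± 9.34 CPM for WT, 176 ± 3.44 for trb45, 54.9 ± 3.52 for clf29 and 79.6 ± 6.76 for trb45 clf29 (means ± SD of 3 libraries). It rose by 0.59 in trb45 (edgeR adjusted p = 3.01e-05) and changed by −1.09 in clf29 (edgeR adjusted p = 3.73e-08). PYE had means of 8.57, 12.3, 4.51 and 9.82 CPM in the same order, with 0.51 in trb45 (edgeR adjusted p = 0.0258) and −0.92 in clf29 (edgeR adjusted p = 0.000626). The ligase gene BTSL1, a relative of BTS, had means of 0.811, 1.90, 0.228 and 0.377 CPM. The abscisic acid factor ABI5 had 0.0773 CPM in WT and 0.419, 0.651 and 0.503 in the mutants. Its WT libraries, at 0.0355 to 0.122 CPM, lay near the floor of 0.0519 to 0.0655 CPM. ILR3 changed by 0.21 in clf29 (edgeR adjusted p = 0.0283).

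Other lists of iron handling and use are given against WT, beside the same shares of all genes (for trb45 14.5% higher and 11.2% lower, for clf29 18.5% and 16.2%, for trb45 clf29 25.9% and 22.6%). Of 9 tested vacuolar and plastid metal transporters, 2 rose and none fell in trb45, 1 rose and 4 fell in clf29, and 3 rose and 3 fell in trb45 clf29. The vacuolar zinc and nicotianamine transporter gene ZIF1 had means of 70.9, 107, 38.8 and 52.0 CPM in WT, trb45, clf29 and trb45 clf29. NRAMP4, which exports iron from the vacuole, had means of 34.0, 55.0, 31.0 and 53.8 CPM. The transporter genes YSL6 and IREG3/MAR1 had means of 67.2 and 72.7 CPM in WT and 91.3 and 51.2 in trb45 clf29. Of 14 tested iron-sulfur cluster genes, 2 rose and 3 fell in trb45, 4 rose and 1 fell in clf29, and 8 rose and 2 fell in trb45 clf29. SUFB, a scaffold subunit of the plastid machinery, had means of 94.9, 76.0, 160 and 163 CPM, and SUFE1, SUFD and ATM3 had 22.4, 113 and 48.1 in WT. Of 11 tested antioxidant enzymes, 3 rose and 4 fell in trb45, 5 rose and none fell in clf29, and 6 rose and none fell in trb45 clf29. The ascorbate peroxidase gene APX1 had means of 274, 248, 483 and 522 CPM, and rose by 0.82 in clf29 (edgeR adjusted p = 5.76e-07). The catalase gene CAT1 had means of 12.5, 8.01, 22.3 and 16.1 CPM, with the groups in the order seen for FER4. CAT3 had 273, 158, 321 and 276 CPM, and its WT libraries (241 to 306) overlapped those of trb45 clf29 (262 to 296). CAT2 had another order, with 1484, 1882, 2005 and 2609 CPM. With library size alone the clf29 counts became 3 higher and 2 lower for antioxidant enzymes, 3 and 3 for iron-sulfur genes, 1 and 6 for transporters, and 2 and 9 for regulators. Of the other VIT family genes, MEB1 and MEB2 were tested and passed in no comparison, and VTL3 and VTL4 had too few counts.

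**Figure D4:**
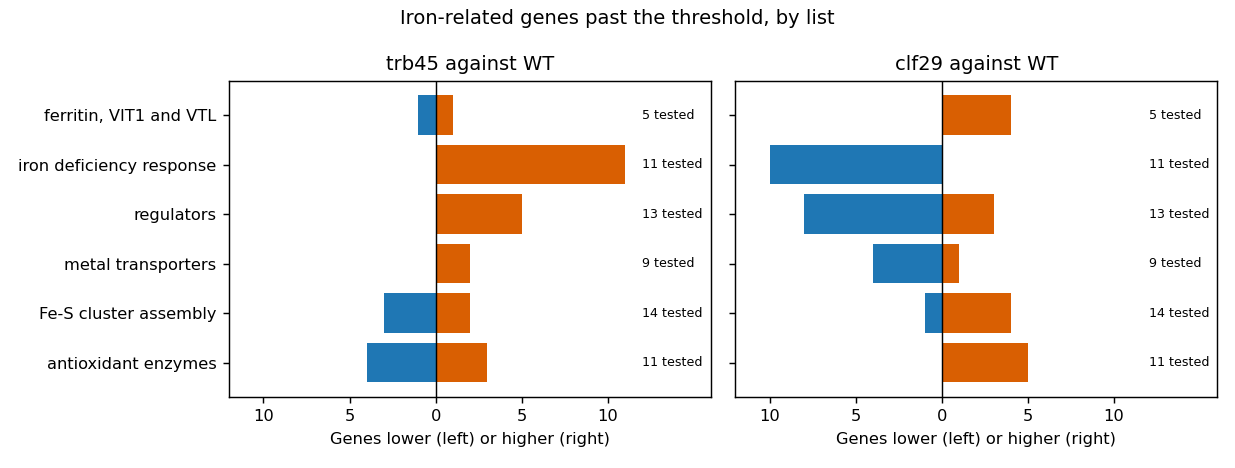
Number of genes called higher (bars to the right) or lower (bars to the left) in each list of iron-related genes, for trb45 and clf29 against WT, with the number tested at the right. The iron deficiency list stands at 11 higher in trb45 and 10 lower in clf29, both against WT, where FER4 was called lower and higher.

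Within the family, FER3 and FER4 had the most similar profiles, with a Pearson correlation of log2 CPM of 0.914 over the 12 libraries. The libraries share groups and scaling, so these correlations are descriptions. FER4 was followed most closely by ACO3 (0.988), which encodes an aconitase, an iron-sulfur enzyme, then by CER4 (0.988), a reductase of wax synthesis, and ENH1 (0.985), a plastid rubredoxin-like protein. For FER3 they were AT1G25510 (0.983), the xylem cysteine protease XCP2 (0.978) and AT3G01750 (0.978). For FER2 they were ATARD2 (0.930), TET3 (0.920) and AT1G48960 (0.918). For VTL1 they were AT5G39670 (0.951), SAG21 (0.921) and AT2G31990 (0.919), and for VTL2 AT5G16450 (0.885), the fatty acid elongase gene KCS2 (0.844) and cycp3;1 (0.828).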

How the data were processed

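Leaf RNA of 12 libraries, 3 in each genotype group given by the labels, was analysed from a single table of raw read counts per gene, used as deposited by the authors. The libraries were stranded mRNA libraries for DNBSEQ, per the labels' protocols. The submitters' processing notes name TAIR10, HISAT2 and DESeq2 without a role. The counting program, the annotation and the strand setting are not given in the sources used here. Value columns were assigned by their names. A single trb45 clf29 column has a name without a number, and it entered its group unnumbered. The number of unused value columns was 0. Of 28775 locus codes, 28009 matched the RefSeq TAIR10.1 gene table, which gave symbols, transcript lengths and upstream windows.

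Counts were fitted with edgeR 4.0.16 in R 4.3.3: filterByExpr (minimum count 10, minimum total 15) kept 19138 genes, TMM factors ran from 0.935 to 1.07, and a quasi-likelihood model of 4 group means was fitted to all libraries, with a common dispersion of 0.00911. Benjamini-Hochberg adjustment ran over all genes tested, with calls at 0.05. Standard errors are the log2 fold change divided by the square root of F, and 95% intervals use 15.4 degrees of freedom, the median over genes. CPM per kb uses the longest RefSeq transcript. The floor of 3 counts covers counting error only. No library pair agreed within sampling noise, and members shared no 50-base window of transcript. The fit was tested on simulated data. Figures and tables were made with pandas 2.3.3, numpy 2.4.6 and matplotlib 3.10.9.

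The genes and lists were chosen with earlier results of these data known. All 8 members are named, the 3 tested genes of at least 1 CPM most correlated with each called member (log2 CPM, prior count 2), and up to 4 genes per list with the smallest adjusted p. ILR3 and the overlapping loci were named after their values were seen. Lists covered other VIT family genes, metal transporters, regulators, the iron deficiency response, iron-sulfur assembly, antioxidant enzymes, phosphate starvation, senescence, and leaf, seed, root and anther markers. The iron-dependent regulatory sequence of ferritin promoters was also searched, but its letters were uncertain, it matched no window, and it was dropped. The upstream window of 1 member is not reported here. Alternatives were RLE factors, library size alone, a filter at a mean of 10 counts or none, DESeq2 1.42.0, a minimum log2 fold change of 1, a block for the replicate number, fits without each library, and fits of only the groups compared. Halving the counts, rounded up, was added after seeing the data.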

Additional observations from a re-analysis of the deposited data

How the results depend on the processing

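Of the members' fold changes under all alternatives, 447 kept their direction and side of the threshold, 22 missed the threshold, 3 newly passed it and 3 changed sign. The calls of FER3 and FER4 in the pairwise comparisons held in every refit, and were lost only where a size of at least 1 on the log2 scale was also required. Under that threshold the called members were 1 in trb45 against WT, 2 in clf29 against WT, 3 in trb45 clf29 against WT, 1 in trb45 clf29 against clf29 and 2 in trb45 clf29 against trb45. Leaving out each library gave 1 to 2 called members in trb45 against WT, 2 to 3 in clf29 against WT, 4 to 5 in trb45 clf29 against WT, 2 to 3 in trb45 clf29 against clf29, 3 in trb45 clf29 against trb45, and 0 to 1 for the interaction. The fifth call against WT was VTL2 without trb45 clf29 replicate 1 (0.47, adjusted p = 0.0465). The interaction count was 1 with library size alone. The sign changed for FER3 in trb45 against WT, which ran from −0.10 to 0.0033 over the fits without a library, for VTL2 in trb45 against WT, from −0.039 to 0.27, and for VTL2 in trb45 clf29 against trb45 with the replicate block (−0.0076). None of these was called, and the cause was not tested. Library size alone shifted the median log2 fold change of all genes by −0.13 in trb45 clf29 against trb45. Counts halved gave the same numbers of called members, as did DESeq2.

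Equal replicate numbers did not pair the samples uniformly. Over 15 pairs with the same number the correlation of deviations ran from −0.25 to 0.32, with a median of 0.0063, and 2 exceeded 0.1. Over 30 pairs with different numbers it ran from −0.29 to 0.24, with a median of 0.0045, and 3 exceeded 0.1. For replicates 1 and 2 of WT and trb45 it was 0.27 and 0.32 with equal numbers and −0.29 crossed. For trb45 and trb45 clf29 it was −0.21 and −0.25 with equal numbers and 0.23 and 0.24 crossed. The cause was not tested. With the replicate block, over the numbered libraries, 2, 3, 4, 3, 3 and 0 members were called in trb45 against WT, clf29 against WT, trb45 clf29 against WT, against clf29 and against trb45, and the interaction. The call it lost was VTL2 in clf29 against WT (0.52, adjusted p = 0.0509). Depth limits VTL5 and VIT1, which had too few counts to test, and FER2 and VTL1, with at most 73 and 57 counts in a library. Without the filter VTL5 had −4.72 in trb45 against WT (adjusted p = 0.0739), a fitted value against 3 libraries at 0 that is no bound.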

Other observations

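Phosphate starvation is known to raise FER1 through PHR1. Of 5 tested genes of that response, 2 rose and 1 fell in trb45, 1 rose and 3 fell in clf29, and 2 rose and 2 fell in trb45 clf29, each against WT. The shares of all genes called higher and lower were 14.5% and 11.2% for trb45, 18.5% and 16.2% for clf29, and 25.9% and 22.6% for trb45 clf29. In trb45 clf29 against clf29 2 rose and none fell, beside 17.2% and 14.2% of all genes. The phosphate transporter gene PHT1;4 had means of 2.64 CPM for WT, 5.35 for trb45, 0.442 for clf29 and 1.12 for trb45 clf29. SQD2, an enzyme of sulfolipid synthesis, had 46.6, 38.4, 31.6 and 31.1 CPM in the same order, PAP17, an acid phosphatase, had 7.27, 12.2, 10.5 and 13.1, and MGD3, a galactolipid synthase, had 0.636, 0.655, 0.203 and 0.377.

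Senescence genes were mostly low. Of 8 tested, 3 rose in trb45 clf29 against WT, and 1 in each of trb45 and clf29, and none fell, beside the shares of all genes given above for phosphate starvation. SAG29, a sugar transporter gene, had means of 0.405, 2.46, 1.89 and 3.86 CPM in WT, trb45, clf29 and trb45 clf29, with edgeR adjusted p of 1.07e-05, 4.37e-05 and 3.95e-07 against WT. SAG13 and ORE1 had 4.28 and 0.693 CPM in trb45 clf29, against 0.236 and 0.170 in WT. The trb45 clf29 libraries spread from 1.24 to 6.77 CPM for SAG13. FER2 was also highest in trb45 clf29, and a link to these genes was not tested. SAG101 had 4.31 CPM in WT and 4.41 in trb45 clf29, and was not called between them.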
